A study of Mus musculus with 6 samples.

Results

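The 10 genes described here encode core parts of the inflammasome or members of the IL-1 family. The first are the sensors Nlrp3 and Aim2, the adaptor Pycard, the proteases Casp1 and Casp4 and the pore former Gsdmd. The others are the IL-1 family cytokines Il1a, Il1b and Il18 and the receptor antagonist Il1rn. All 10 were taken by gene symbol from the 45193 Ensembl genes of the deposited count table, and each matched 1 row. Of the 10, 9 had enough reads to be tested among 12011 genes. Polyadenylated RNA was sequenced from macrophages grown out of mouse bone marrow, in 3 libraries for each of 2 genotypes. The knockout (RXRKO) cells are labelled RXRafl/flLysMCre RXRb-/-: Rxra is floxed and cut by a Cre that the myeloid lysozyme M locus drives, and both Rxrb alleles are knocked out. For the wild-type (WT) cells the labels give neither a floxed allele nor Cre. Both genotypes are labelled C57BL/6J. The products of Rxra and Rxrb, RXR alpha and RXR beta, pair with many other nuclear receptors on DNA. All cultures had 6 days of L929 conditioned medium, which supplies CSF-1, with serum withdrawn from the evening of day 5, and then DMSO, a solvent, for 3 hours, so no library was primed with lipopolysaccharide or any other activator. The comparison asks how the 2 genotypes differ in this resting state. The labels call the replicates biological without naming animals, so the spread behind each p-value is that of these libraries and may in part be technical.

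An inflammasome is a cytosolic complex in which a sensor protein, through the adaptor ASC (encoded by Pycard), gathers and activates caspase-1. Active caspase-1 cleaves the precursors of interleukin-1 beta and interleukin-18 and opens gasdermin D, whose fragments form membrane pores and cause the lytic death called pyroptosis. NLRP3 responds to many forms of membrane and ion stress, AIM2 binds cytosolic DNA, and caspase-4 of the mouse, often called caspase-11, is activated by cytosolic lipopolysaccharide without such a sensor. In resting macrophages transcription of Nlrp3 and Il1b is known to be limiting and to rise with signals through NF-kB, while precursor interleukin-18 is made without such a signal.

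The 250 bases before the annotated transcription starts are shown for the 4 genes that passed the test (Nlrp3, Casp1, Casp4 and Il18) and for Il1rn, the gene whose window held a nuclear receptor half-site. They are RefSeq sequences of GRCm38.p6, matched by symbol for 9 of the 10 genes in 13 windows; Gsdmd had none. Capitals mark matches, on either strand, to the nuclear receptor half-site AGGTCA, the PU.1 type core GAGGAA, the interferon response type site (GAAA, any 2 bases, GAAA) or the NF-kB consensus. Nlrp3 had 2 starts, at the + strand windows chr11:59541319-59541568 (upstream) and chr11:59542436-59542685 (downstream). The others were the + strand windows chr9:5298267-5298516 for Casp1, chr9:5308599-5308848 for Casp4, chr9:50554450-50554699 for Il18 and chr2:24336610-24336859 for Il1rn.
Nlrp3, upstream start: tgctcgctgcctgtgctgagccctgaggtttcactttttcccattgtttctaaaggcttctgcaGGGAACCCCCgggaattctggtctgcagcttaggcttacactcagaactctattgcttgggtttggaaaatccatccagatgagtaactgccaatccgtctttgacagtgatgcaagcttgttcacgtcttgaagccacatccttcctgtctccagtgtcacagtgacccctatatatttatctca
Nlrp3, downstream start: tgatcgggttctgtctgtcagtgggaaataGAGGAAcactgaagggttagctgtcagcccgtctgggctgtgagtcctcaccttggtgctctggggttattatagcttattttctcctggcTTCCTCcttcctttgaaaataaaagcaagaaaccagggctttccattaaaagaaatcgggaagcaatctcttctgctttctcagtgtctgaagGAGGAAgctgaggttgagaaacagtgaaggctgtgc
Casp1: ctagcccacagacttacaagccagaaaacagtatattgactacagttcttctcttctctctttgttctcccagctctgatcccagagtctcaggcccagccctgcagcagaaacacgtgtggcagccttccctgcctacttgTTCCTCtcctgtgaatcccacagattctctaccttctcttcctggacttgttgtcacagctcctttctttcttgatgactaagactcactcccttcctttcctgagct
Casp4: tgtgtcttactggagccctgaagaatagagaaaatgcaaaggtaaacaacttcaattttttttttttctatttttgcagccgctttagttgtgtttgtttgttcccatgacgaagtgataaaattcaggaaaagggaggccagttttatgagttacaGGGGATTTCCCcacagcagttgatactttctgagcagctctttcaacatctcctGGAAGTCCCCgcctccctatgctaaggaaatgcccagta
Il18: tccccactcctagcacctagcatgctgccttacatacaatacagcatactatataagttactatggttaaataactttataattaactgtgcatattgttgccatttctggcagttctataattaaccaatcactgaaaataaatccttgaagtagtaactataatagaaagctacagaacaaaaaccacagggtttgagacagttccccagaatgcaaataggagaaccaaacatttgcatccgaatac
Il1rn, upstream start: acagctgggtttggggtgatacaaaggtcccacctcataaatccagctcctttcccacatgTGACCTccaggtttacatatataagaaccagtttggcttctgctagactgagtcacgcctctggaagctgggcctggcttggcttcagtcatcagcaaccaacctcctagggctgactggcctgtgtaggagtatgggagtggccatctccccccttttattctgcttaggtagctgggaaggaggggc

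An NF-kB consensus stood in 3 of the 13 windows, the upstream one of Nlrp3 and 2 overlapping ones of Casp4 that hold the same sites, and in 7.25% of all 32851 windows of that length. The PU.1 type core, named for a transcription factor of the myeloid lineage, stood in 5 of the 13 windows, 1 each of Nlrp3, Pycard, Casp1, Aim2 and Il1a, and in 23.3% of all windows. The half-site AGGTCA was in 1 of the 13, of Il1rn, and in 14.0% of all windows, and the interferon response type site was in 0 of the 13 and in 2.98% of all windows. The window of Il18 held none of these motifs. It lies before the RefSeq start and ends upstream of the GENCODE start given with the values of Il18. For that start and the upstream start of Nlrp3, a stretch that follows it in RefSeq was not found as 1 unbroken run in a GENCODE transcript of the gene. Some windows of a gene overlap, and a match of letters is a description and not a bound site.

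Libraries held between 17250051 and 25091019 counts in RXRKO and between 7880320 and 14957253 in WT, so depth and genotype cannot be told apart. Of the targeted genes, Rxrb fell to 9.27 ± 2.09 CPM (counts per 1e6 counts, scaled by TMM factors) in RXRKO against 66.7 ± 1.86 CPM in WT (SD, n = 3 each), while counts over the whole Rxra gene, 109 ± 4.83 CPM in RXRKO and 104 ± 6.7 CPM in WT, do not check the removal of its floxed part. Lyz2, the gene at the Cre locus, fell to 28.4 ± 6.12 CPM in RXRKO against 15300 ± 594 CPM in WT. Receptor loss, Cre and the loss of Lyz2 therefore cannot be told apart in any difference below. In a culture measured in bulk, fewer cells with a transcript and less transcript per cell also cannot be told apart.

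Nlrp3 was higher in RXRKO macrophages and Il18, Casp4 and Casp1 were lower, while Gsdmd, Aim2, Pycard, Il1rn and Il1b did not pass the test. That is 1 tested gene of 9 called higher, where 9.77% of all tested genes were, and 3 of 9 called lower, where 9.61% were (edgeR quasi-likelihood test, Benjamini-Hochberg adjusted p under 0.05). Nlrp3 and Il18 were the 2 that differed at least 2-fold. The median log2 fold change of the 9 was -0.24, and that of all tested genes was -0.0048. All 3 RXRKO values lay apart from all 3 WT values in 5 of the 9 genes (Nlrp3, Pycard, Casp1, Casp4 and Il18), and in 36.9% of all tested genes. In 4 of these RXRKO was the lower group, as in 17.9% of all tested genes, and in 1 it was the higher, as in 19.0%. For any single gene the smallest two-sided exact permutation p that 3 against 3 libraries allow is 0.1, so calls rest on the fit across genes.

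**Figure D1:**
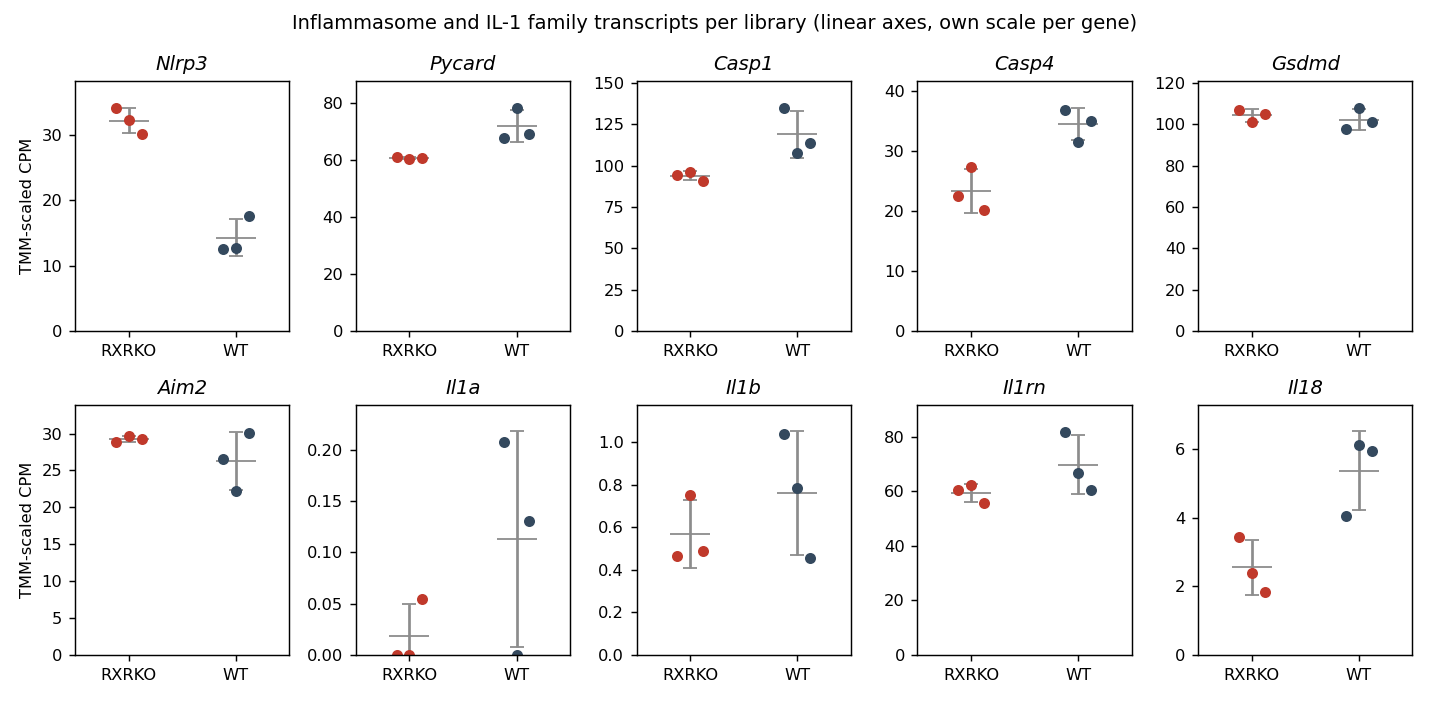
TMM-scaled CPM of each transcript in the 3 RXRKO and 3 WT libraries (points), with the mean and SD in grey; axes are linear, start at 0 and differ between genes. Nlrp3 sits between 30.2 and 34.1 CPM in RXRKO and between 12.5 and 17.6 CPM in WT, Il18 lies lower in every RXRKO library, and Gsdmd overlaps.

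The sensor gene Nlrp3 (ENSMUSG00000032691, chromosome 11, 59541568 to 59566956, + strand, GRCm38) had 587, 813 and 556 reads in RXRKO replicates 1, 2 and 3, against 120, 98 and 270 reads in WT replicates 1, 2 and 3. Scaled to depth these were 34.1, 32.3 and 30.2 CPM in RXRKO and 12.5, 12.8 and 17.6 CPM in WT. Every RXRKO library stood above every WT library, and WT replicate 3 was the highest of the WT libraries. Nlrp3 averaged 32.2 ± 1.97 CPM in RXRKO and 14.3 ± 2.9 CPM in WT, which is 1.15 on the log2 scale (SE 0.138, edgeR adjusted p = 9.67e-05) or 2.22-fold with a 95% interval of 1.8 to 2.72. Of all tested genes, 3.13% had a larger change in either direction. With each library left out in turn its log2 fold change ran between 1.05 and 1.35, and it passed the test each time.

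The DNA sensor gene Aim2 (ENSMUSG00000037860, chromosome 1, 173350879 to 173466040, + strand) had 28.8, 29.6 and 29.3 CPM in RXRKO against 26.6, 22.2 and 30.1 CPM in WT. The RXRKO values lay within the WT range, with WT replicate 3 above and WT replicate 2 well below them. The fold was 1.1 with a 95% interval of 0.925 to 1.31 (edgeR adjusted p = 0.44), so a difference as large as that of Nlrp3 lies outside the interval. Within a library the level per kilobase of Nlrp3 was 0.837, 0.77 and 0.727 times that of Aim2 in RXRKO, against 0.331, 0.407 and 0.414 times in WT. This ratio was higher in every RXRKO library (two-sided exact permutation p = 0.1, the smallest possible here).

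Pycard (ENSMUSG00000030793, chromosome 7, 127989708 to 127993867, - strand), the adaptor gene, had 61, 60.5 and 60.6 CPM in RXRKO against 67.9, 78.3 and 69.3 CPM in WT. Its RXRKO values lay within 1 CPM of each other and below all WT values, but the difference missed the threshold, at -0.24 on the log2 scale (SE 0.087, edgeR adjusted p = 0.0724). A gene model of unsettled status on the other strand, Gm45205, shares 12.8% of its exon bases and has no row in the table, and the use of strand in counting is not given in the sources used here, so the Pycard counts are uncertain by that part. In every RXRKO library there was more Nlrp3 per Pycard, 0.529, 0.504 and 0.471 per kilobase, against 0.173, 0.154 and 0.24 in WT.

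Casp1 (ENSMUSG00000025888, chromosome 9, 5298517 to 5307265, + strand), which encodes the protease of the complex, had 94.7, 96.3 and 90.9 CPM in RXRKO against 135, 108 and 114 CPM in WT. The groups did not overlap, and WT replicate 1 stood highest. Casp1 averaged 94 ± 2.77 CPM in RXRKO and 119 ± 14 CPM in WT, which is -0.34 on the log2 scale (SE 0.0931, edgeR adjusted p = 0.0228). This call was lost in fits without some single libraries. Without WT replicate 1 the log2 fold change was -0.25 (edgeR adjusted p = 0.105). Without RXRKO replicate 1, 2 or 3 the log2 fold change stayed near its value, at -0.344, -0.357 or -0.316. The edgeR adjusted p in those fits was 0.0825, 0.0536 or 0.0523. Its neighbour Casp4 (ENSMUSG00000033538, chromosome 9, 5308828 to 5336783, + strand), which encodes the lipopolysaccharide-sensing protease, had 388, 690 and 371 reads in RXRKO against 356, 242 and 537 reads in WT. Those are 22.6, 27.4 and 20.2 CPM in RXRKO and 36.9, 31.6 and 35.1 CPM in WT, and again the groups did not overlap. Casp4 fell to 23.4 ± 3.68 CPM in RXRKO against 34.5 ± 2.73 CPM in WT, which is -0.56 on the log2 scale (SE 0.125, edgeR adjusted p = 0.00739), and it passed with any 1 library left out, at adjusted p of at most 0.0462. The ratio of Casp1 to Casp4 per kilobase, 3.91 ± 0.487 in RXRKO and 3.3 ± 0.185 in WT, overlapped between the genotypes (two-sided exact permutation p = 0.2).

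Gsdmd (ENSMUSG00000022575, chromosome 15, 75862327 to 75867408, + strand), the pore former cut by both proteases, had 107, 101 and 105 CPM in RXRKO against 97.9, 108 and 101 CPM in WT. The values interleaved. Its fold of 1.02 had a 95% interval of 0.903 to 1.15 (edgeR adjusted p = 0.858).

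**Figure D2:**
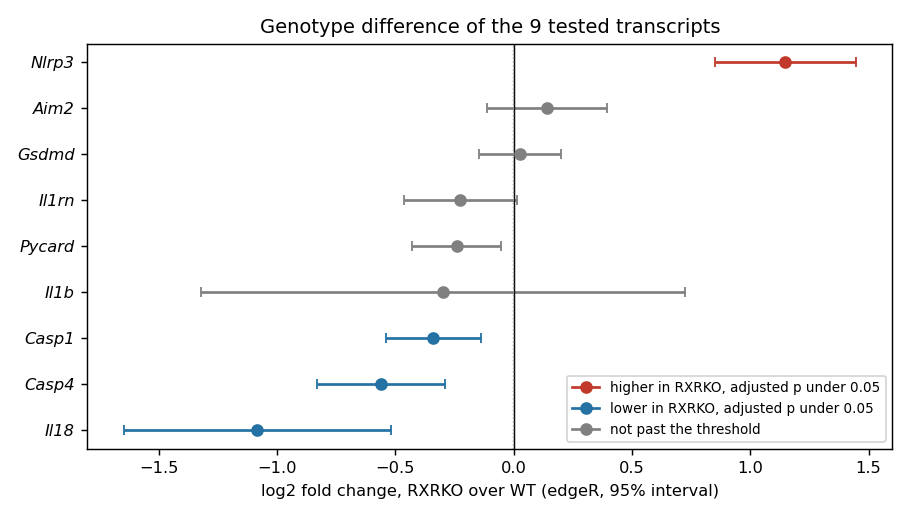
Log2 fold change of RXRKO over WT for the 9 tested genes (points) with 95% intervals from the edgeR fit; red marks a gene called higher in RXRKO, blue lower, grey not past the threshold. Nlrp3 stands alone on the right at 1.15, Il18, Casp4 and Casp1 lie left of 0, and the interval of Il1b is the widest.

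Of the cytokine genes, Il18 (ENSMUSG00000039217, chromosome 9, 50554827 to 50581840, + strand) differed most. It had 59, 60 and 34 reads in RXRKO against 39, 47 and 91 reads in WT, or 3.43, 2.38 and 1.85 CPM in RXRKO and 4.05, 6.13 and 5.94 CPM in WT. The groups did not overlap, though RXRKO replicate 1 and WT replicate 1 were close. Il18 fell to 2.55 ± 0.806 CPM in RXRKO against 5.37 ± 1.15 CPM in WT, which is -1.08 on the log2 scale (SE 0.26, edgeR adjusted p = 0.0111), 0.472-fold with a 95% interval of 0.319 to 0.697. It passed with each library left out, at log2 fold changes between -1.33 and -0.91, the highest adjusted p being 0.0482 without WT replicate 3. With all libraries thinned to the depth of the smallest the log2 fold change was -0.84 and the adjusted p 0.0582, so few reads stand behind this call.

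Transcripts of the interleukin-1 cytokines themselves were scarce in both genotypes. Il1b (ENSMUSG00000027398, chromosome 2, 129364570 to 129371139, - strand) had 8, 19 and 9 reads in RXRKO against 10, 6 and 7 reads in WT. That is 0.569 ± 0.16 CPM in RXRKO and 0.759 ± 0.291 CPM in WT, with overlapping groups, and 98.7% of tested genes had a higher mean level. Its fold of 0.812 had a 95% interval of 0.4 to 1.65 (edgeR adjusted p = 0.706), so a change of either sign within it was not detectable at this depth. It shares 1.31% of its exon bases with an antisense transcript, Il1bos. Il1a (ENSMUSG00000027399, chromosome 2, 129299610 to 129309972, - strand), which encodes interleukin-1 alpha, had 0, 0 and 1 reads in RXRKO against 2, 0 and 2 reads in WT and was not tested; 11.2% of its exon bases lie in Gm14023 on the other strand. All its libraries lay under the limit that 3 counts set, between 0.119 and 0.391 CPM by library, so no fold is given.

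Il1rn (ENSMUSG00000026981, chromosome 2, 24336853 to 24351494, + strand), whose product blocks the interleukin-1 receptor, was far more abundant than either cytokine. It had 60.6, 62.3 and 55.9 CPM in RXRKO against 82, 66.9 and 60.7 CPM in WT. WT replicate 1 was the highest and WT replicate 3 lay within the RXRKO range. The log2 fold change of -0.23 (SE 0.11) did not pass (edgeR adjusted p = 0.177); it was -0.33 with an adjusted p of 0.0477 without WT replicate 3 and -0.1 with 0.577 without WT replicate 1. Il1rn lies 3.32 Mb from Rxra on the same chromosome, within the 10 Mb around the floxed gene in which 44 of 219 tested genes, or 20.1%, were called, beside 19.4% of all tested genes. Per kilobase, Il1rn stood at 71.4, 45.3 and 62.7 times Il1b in RXRKO and at 43.3, 46.9 and 72.8 times Il1b in WT, with overlapping groups (two-sided exact permutation p = 0.8).

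Levels of different genes were compared as CPM per kilobase of the longest principal transcript. Casp1 led in both genotypes, with 62.8 ± 1.85 in RXRKO and 79.4 ± 9.34 in WT, above 90.8% of tested genes in RXRKO and 92.5% in WT. Gsdmd came next with 58.2 ± 1.74 in RXRKO and 57.1 ± 2.9 in WT. Il1rn, Casp4 and Pycard followed, with means of 24.1, 16.3 and 16 in RXRKO and 28.2, 24.1 and 18.9 in WT. Neighbours in this order whose libraries overlapped were Casp4 and Pycard in RXRKO, and Il1rn and Casp4 in WT. Aim2 had 10.3 ± 0.141 in RXRKO and 9.26 ± 1.4 in WT. The order of Nlrp3 and Il18 was opposite in the genotypes: Nlrp3 at 8.01 ± 0.49 stood above Il18 at 2.97 ± 0.937 in RXRKO, and Nlrp3 at 3.55 ± 0.721 stood below Il18 at 6.25 ± 1.34 in WT, without overlap in either. Il1b (0.42 ± 0.118 in RXRKO, 0.56 ± 0.215 in WT) and Il1a came last. With the merged length of all exons in place of the principal transcript, Pycard ranked 3, above Il1rn, in both genotypes, Casp4 ranked 7 in RXRKO and 5 in WT, and Nlrp3 and Il18 kept their opposite order. RefSeq ends Pycard 1665 bases earlier than GENCODE does, and with that length its level would be 28.4 ± 0.138 in RXRKO and 33.6 ± 2.64 in WT, above Il1rn without overlap in RXRKO and with overlapping libraries in WT.

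**Figure D3:**
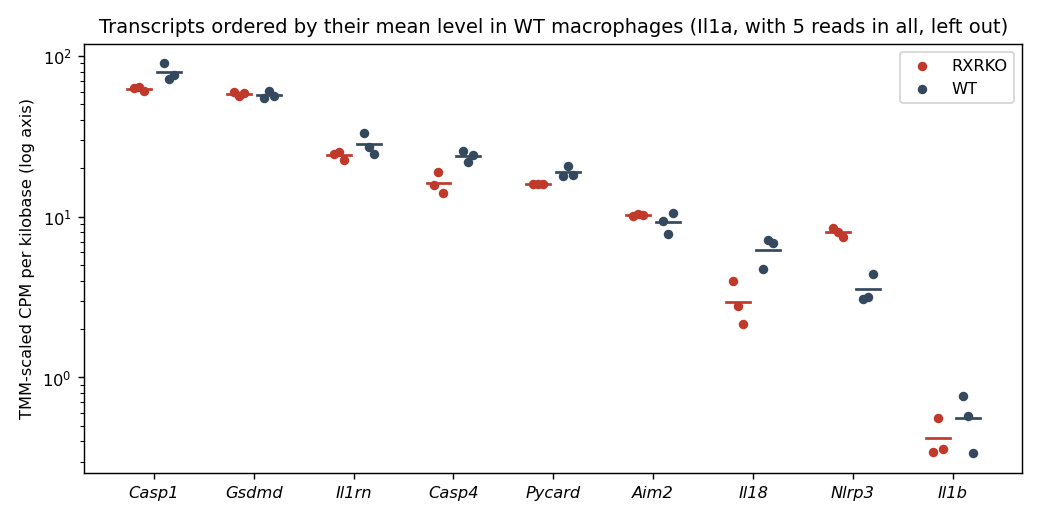
TMM-scaled CPM per kilobase of principal transcript on a log axis for each library (points; bars, means), RXRKO left of WT within each gene, ordered by the WT mean. Il1a is left out. Casp1 and Gsdmd are highest and Il1b lowest, and Nlrp3 and Il18 change places between the genotypes.

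Other sensors and adaptors moved in both directions. Of 13 tested genes 3 rose, 2 fell and 8 missed the threshold, with a median log2 fold change of -0.03. Over all tested genes, for this and the following lists, 9.77% rose and 9.61% fell. Mefv, which encodes the sensor pyrin, fell to 15.2 ± 1.87 CPM in RXRKO against 43.9 ± 10.8 CPM in WT (log2 fold change -1.54, SE 0.161, edgeR adjusted p = 2.99e-05). Nlrc4, the partner of the NAIP receptors for bacterial flagellin and secretion systems, fell to 16.9 ± 2.08 CPM in RXRKO against 28.1 ± 1.96 CPM in WT (-0.74, SE 0.121). Both passed with any library left out. Nlrp1a, a sensor gene, rose (0.54), as did Card9, an adaptor of lectin receptors (0.41), and Pstpip1, which encodes a pyrin-binding protein (0.28). These 3 rises were less firm, and all 3 were lost without RXRKO replicate 1 (adjusted p of 0.0514, 0.0561 and 0.119). Calls over all tested genes also fell in such fits, for this and the following lists. With every library 1173 genes were called higher and 1154 lower. Without RXRKO replicate 1 these counts were 687 and 684, and without WT replicate 1 they were 661 and 640. Card9 was also lost without RXRKO replicate 3 or WT replicate 1 or 3 (0.111, 0.184 and 0.076), and Pstpip1 without any library other than WT replicate 2, with at most 0.119. Nlrp1a belongs to a cluster of similar copies, so its counts are uncertain.

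Among genes that trigger or tune NLRP3, 7 of 14 tested rose, where 9.77% of all tested genes did, 0 fell and 7 missed the threshold, with a median log2 fold change of 0.31. P2rx7, the receptor through which extracellular ATP drives potassium out of the cell, rose to 97.5 ± 2.01 CPM in RXRKO against 65.6 ± 4.06 CPM in WT (0.57, SE 0.0835, edgeR adjusted p = 0.00044). Its relative P2rx4 rose to 372 ± 12.1 CPM in RXRKO against 265 ± 10.9 CPM in WT (0.49), and Txnip, which encodes a thioredoxin-binding protein, to 388 ± 10.7 CPM in RXRKO against 271 ± 28.8 CPM in WT (0.52). Each of these 3 passed under every alternative tried. The list mixes activators and inhibitors, so its counts give no direction of NLRP3 activity. Of its inhibitors of NLRP3, Trim31 had 0 reads in all 6 libraries and Zdhhc12 had 30.9 CPM in RXRKO and 26.1 CPM in WT (edgeR adjusted p = 0.107). Nek7, the kinase that binds NLRP3 and a gene picked with its values in view, had 169 CPM in RXRKO and 155 CPM in WT (edgeR adjusted p = 0.292).

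Of 14 genes of cell death and its control, 0 rose, 4 fell, where 9.61% of all tested genes did, and 10 did not pass, with a median log2 fold change of -0.04. Ripk3, the kinase of necroptosis, fell to 24.5 ± 2.66 CPM in RXRKO against 38.6 ± 2.6 CPM in WT (-0.66, SE 0.11, edgeR adjusted p = 0.00118) and passed with any library left out. Casp8, the initiator of death receptor signalling, fell to 78.3 ± 3.2 CPM in RXRKO against 100 ± 7.07 CPM in WT (-0.35). The call of Casp8 was lost without RXRKO replicate 1 (adjusted p = 0.0791) or WT replicate 1 (0.0637). Without WT replicate 1 the list had 1 gene that fell, and without RXRKO replicate 1 it had 2.

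Other ligands of the family were nearly silent. Of 5 with a row only Il1f9 was tested, which encodes interleukin-36 gamma, with 1.18 ± 0.0898 CPM in RXRKO and 1.06 ± 0.466 CPM in WT (edgeR adjusted p = 0.915). Il33 had 0 reads in all 6 libraries. The receptor list gave 1 gene that rose and 0 that fell of 6 tested, with a median log2 fold change of 0.17. The one that rose was Il1rl1, the gene of the interleukin-33 receptor ST2, at 5.97 ± 0.875 CPM in RXRKO against 1.35 ± 0.135 CPM in WT (2.12, SE 0.234, edgeR adjusted p = 4.76e-05), and it passed under every alternative.

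Of 19 genes of interleukin-1 receptor and NF-kB signalling, 3 rose, 2 fell and 14 did not pass, beside 19.4% of all tested genes that passed in either direction, with a median log2 fold change of 0.04. The inhibitor gene Nfkbia fell to 89.4 ± 1.77 CPM in RXRKO against 126 ± 4.52 CPM in WT (-0.50), and Nfkbiz, a nuclear cofactor of NF-kB, to 25.6 ± 0.544 CPM in RXRKO against 37.2 ± 5.2 CPM in WT (-0.55), both under every alternative. The kinase gene Irak2 (0.39), the NF-kB subunit gene Rel (0.37) and Ikbkg, a subunit of the kinase of the inhibitor (0.24), rose, but all 3 calls were lost without RXRKO replicate 1 (adjusted p of 0.0517, 0.0517 and 0.123). Rel was also lost without RXRKO replicate 2 (0.106) or WT replicate 1 or 2 (0.0556 and 0.0659), and Ikbkg without any 1 library, at up to 0.132, with RLE factors (0.0504) and with no filter (0.102). Without RXRKO replicate 1 the list had 0 genes that rose. The list of guanylate-binding proteins and interferon factors was drawn up as genes upstream of caspase-4 and AIM2. The place of each gene upstream of them was not tested. In this list 5 of 10 rose, where 9.77% of all tested genes did, 0 fell and 5 did not pass. The median log2 fold change was 0.33. Gbp2 (15.4 ± 1.15 CPM in RXRKO, 8.16 ± 0.633 CPM in WT) and the transcription factor gene Irf8 (283 ± 15.3 CPM in RXRKO, 183 ± 4.94 CPM in WT) passed under every alternative. Irf1 rose to 65.9 ± 1.44 CPM in RXRKO against 51.7 ± 0.676 CPM in WT (0.35), a call lost without RXRKO replicate 1 (adjusted p = 0.0564). Without RXRKO replicate 1 or without WT replicate 1 the list had 3 genes that rose. Gbp2 is one of several similar genes, so its counts are uncertain.

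**Figure D4:**
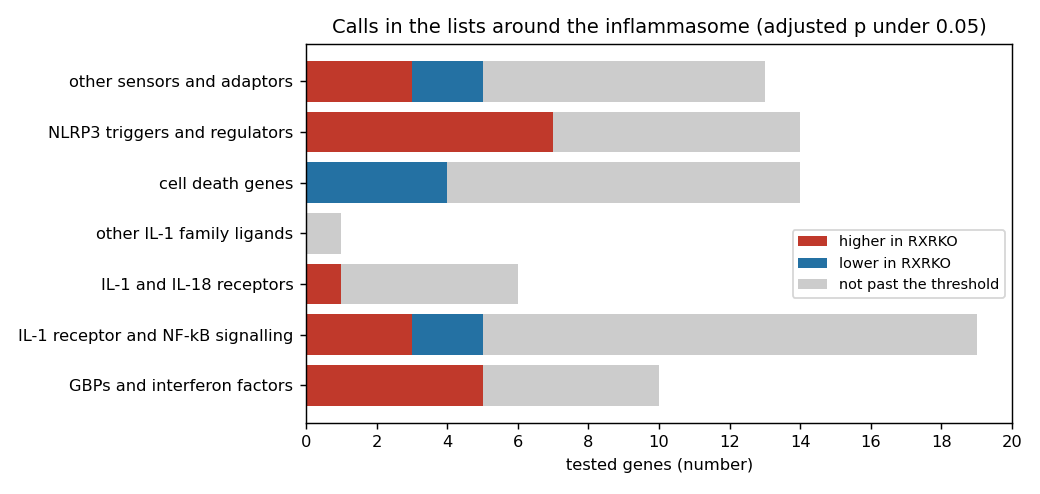
Number of tested genes called higher in RXRKO (red), lower in RXRKO (blue) or not past the threshold (grey) in each of 7 lists around the inflammasome. The triggers and regulators of NLRP3 hold 7 higher and 0 lower, and the cell death list 0 higher and 4 lower.

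Markers of macrophages and of other cells were read beside these results, as summed CPM. The 8 macrophage genes summed to between 7610 and 8810 in RXRKO and between 6750 and 7730 in WT. Of them 3 rose and 1 fell. Cd14 rose to 628 CPM in RXRKO against 296 CPM in WT, and Itgam to 1080 CPM in RXRKO against 687 CPM in WT. Csf1r rose to 2910 CPM in RXRKO against 2220 CPM in WT, while Fcgr1 fell to 83.3 CPM in RXRKO against 108 CPM in WT. Adgre1, Cd68, Mertk and Spi1 did not pass. The 5 monocyte markers summed to between 57.6 and 63.7 in RXRKO and between 61 and 65.2 in WT, with 1 that rose and 2 that fell. F13a1, the most abundant, rose to 36.1 CPM in RXRKO against 28.1 CPM in WT, while Ly6c2 fell to 8.73 CPM in RXRKO against 14 CPM in WT and Ccr2 to 7.16 CPM in RXRKO against 10.6 CPM in WT. The 12 neutrophil markers summed to between 1120 and 1260 in RXRKO and between 1180 and 1330 in WT, with 3 that rose and 3 that fell. The granule genes Mpo (29.5 CPM in RXRKO, 54.3 CPM in WT), Elane (13.9 CPM in RXRKO, 29.8 CPM in WT) and Ngp (313 CPM in RXRKO, 377 CPM in WT) fell. Csf3r (81.2 CPM in RXRKO, 48 CPM in WT), Mmp8 (70.2 CPM in RXRKO, 45.8 CPM in WT) and Cxcr2 (2.09 CPM in RXRKO, 0.938 CPM in WT) rose. The others did not pass. Of these Ltf had 314 CPM in RXRKO and 278 CPM in WT, and S100a9 had 174 CPM in RXRKO and 207 CPM in WT. S100a8 stood at 134 CPM in RXRKO and 141 CPM in WT, and Camp at 50.4 CPM in RXRKO and 52.7 CPM in WT. Retnlg had 2.45 CPM in RXRKO and 1.49 CPM in WT, and Ly6g 0.927 CPM in RXRKO and 0.859 CPM in WT. The 7 dendritic cell markers summed to at most 2.72 in RXRKO and 2.08 in WT, and none was tested. Sums of mast cell, T and NK cell and fibroblast markers reached at most 9.89 in RXRKO and 9.4 in WT. The 5 B cell markers summed to between 1.71 and 2.85 in RXRKO and between 4.83 and 5.81 in WT, most of it Cd79b, which fell. The part of other cells in the differences of Nlrp3, Il18, Casp4 and Casp1 was not tested.

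**Figure D5:**
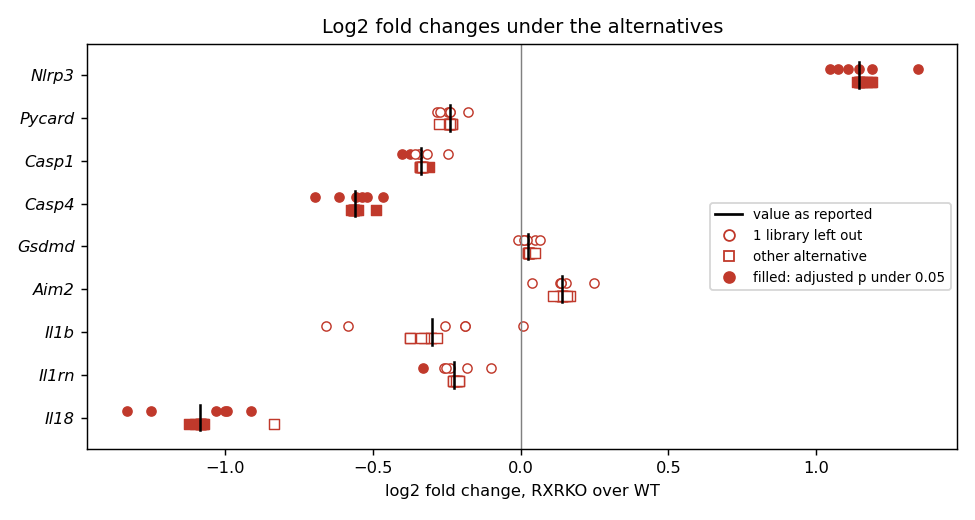
Log2 fold change of RXRKO over WT for each tested gene under the alternatives: circles, 1 library left out; squares, another normalization, filter, test or design; filled, adjusted p under 0.05; black line, the value as reported. Nlrp3 and Casp4 are filled throughout, Casp1 is open in 5 settings and Il18 in 1.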

How the data were processed

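Poly(A) RNA of 3 RXRKO and 3 WT macrophage cultures was read single-end on an Illumina NextSeq from NEBNext Ultra II libraries made with 100 ng of RNA, per the labels' protocols. The main tests used the raw counts that the authors deposited for 45193 Ensembl genes. TopHat2 2.0.7, DESeq and the build mm10 (GRCm38) are listed in the submitters' processing notes; no source used here gives the counting program, annotation release or strand setting. A second deposited table holds the authors' log2 values. Each column of it equals the log2 of the count plus a constant, except that a count of 0 stands at 0, as does a count of 1 in the RXRKO columns.

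The test was edgeR's robust quasi-likelihood test (version 4.0.16, under R 4.3.3) with TMM factors and genotype as the only term, on 12011 genes kept by filterByExpr (minimum count 10, minimum total count 15), with Benjamini-Hochberg adjustment over all of them and a threshold of 0.05. SEs were derived from each gene's F statistic and log2 fold change, and 95% intervals from the SEs. Depths are given in the report, and thinning to the smallest library was 1 of the alternatives. Symbols were matched for 45106 of 45193 genes, and positions and lengths are those of GENCODE M21 (GRCm38). Alternatives were RLE and upper-quartile factors, no filter, CPM of at least 1 in 3 libraries, DESeq2 1.42.0, limma-voom (limma 3.58.1), limma on the authors' log2 values as log2(linear value + 1), the replicate number as a block, thinning, and leaving out each library. Merged exon length was added after seeing the data. The members, lists and tests were chosen with earlier results of these data known. Genes named from the lists were those with the smallest adjusted p, up to 3 higher and 3 lower each, or the most abundant tested gene of a list with none called. Some genes that this rule or the marker lists hold are not reported here. The edgeR step was tested on simulated data.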

Additional observations from a re-analysis of the deposited data

How the results depend on the processing

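The call of Nlrp3 (higher) and that of Casp4 (lower) held under all 15 alternatives tried. Casp1 lost its call with the replicate number as a block (adjusted p = 0.0806) and without 4 single libraries, and Il18 lost it after thinning; the number of the 9 genes called lower ran from 2 to 4 with 1 library left out, 4 being reached when Il1rn passed without WT replicate 3. Over all genes, the 1173 called higher ran from 661 to 1275 and the 1154 called lower from 640 to 1337 with 1 library left out, lowest without WT replicate 1. With the replicate block they were 709 and 666, and 4 of the lists had fewer calls: 2 guanylate-binding protein and interferon genes, 1 signalling gene and 1 sensor gene rose, and 1 cell death gene fell. The labels do not say whether libraries with the same replicate number were paired. Deviations of RXRKO and WT libraries with the same number correlated at 0.0528, -0.275 and -0.259. So few libraries cannot settle whether pairs exist. Directions turned in 3 cases, none past the threshold: Gsdmd (-0.009) and Il1b (0.009) without WT replicate 1, and Il1f9 (-0.175) without WT replicate 2; with 1 library left out they ran up to 0.066, down to -0.659 and up to 0.264 on the log2 scale. The cause of these changes was not tested. No scaling moved the median log2 fold change of all genes by as much as 0.1. Il1b could not be tested under the CPM filter or after thinning. Few reads limit Il1a, Il1b and Il18.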

Other observations

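Naip1, which encodes a receptor for bacterial secretion system needle protein, and Il1r1, the signalling receptor of interleukin-1, had too few reads to be tested and were chosen after their values were seen. Naip1 had 22, 17 and 8 reads in RXRKO against 2, 3 and 1 reads in WT, and Il1r1 had 6, 13 and 10 reads in RXRKO against 2, 1 and 1 reads in WT. Scaled to depth, every RXRKO library was above every WT library for both genes, at 0.796 ± 0.435 CPM in RXRKO and 0.221 ± 0.163 CPM in WT for Naip1, and at 0.469 ± 0.105 CPM in RXRKO and 0.134 ± 0.0712 CPM in WT for Il1r1 (SD, n = 3 each). In WT neither gene had more than 3 reads in any library, and 3 counts is the limit used for Il1a. RXRKO was the higher group without overlap in 19.0% of all tested genes. Naip1 and Il1r1 are not among those, and the share among genes with too few reads to be tested was not computed. Naip1 has similar copies, so its counts are uncertain.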
